A study of Mus musculus with 30 samples.

Results

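The respiratory chain subunits that are encoded in the nucleus were followed by RNA sequencing in mouse erythroid cells with and without Abcb10, before and during induced differentiation. Members were the genes of the count table that the mouse annotation (GRCm38) lists as protein coding and whose symbols name a subunit: Nduf followed by a, b, c, s or v and a number, Sdha to Sdhd, every Uqcr symbol and Cyc1, Cox4 to Cox8, and Atp5. This gave 85 of the 54532 genes, with 36 in complex I, 4 in complex II, 9 in complex III, 18 in complex IV and 18 in complex V. They stood for 84 symbols, because a readthrough locus also carried the symbol Atp5o. The rule itself uses names and no measured value, but this gene family was picked for description with earlier results of these data known.

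The cells were MEL cells, a murine erythroleukemia line that starts to make hemoglobin when DMSO is added. WT cells were compared with Abcb10-null cells, which came from a single clone made with a lentiviral CRISPR/Cas9 construct, so that a difference between the genotypes is also a difference between this clone and the WT line. Both were sampled at day 0 without treatment and at days 2 and 5 in 1.5% DMSO, with 5 libraries for each genotype and day and 30 in all. The labels call these biological replicates and do not say how the cultures were kept apart, so the p-values measure the spread between these 5 samples. The study measured respiration in the same cells, and the comparisons here ask how the transcripts of the chain's subunits differed between genotypes and over the days.

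The chain passes electrons from NADH (complex I) or succinate (complex II) through ubiquinol to complex III, from there by cytochrome c to complex IV and oxygen, and complexes I, III and IV pump protons that drive ATP synthesis in complex V. Complexes I, III, IV and V are built from subunits made in the cytosol and a few made inside the mitochondrion, whereas complex II is made from nuclear genes alone. Erythroid cells need mitochondria for heme synthesis and lose them late in maturation. Some complex IV subunits and the c subunit of complex V are encoded by more than one nuclear gene, with forms known from heart and muscle, testis or lung beside the common ones.

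Libraries held 9906783 to 20157768 counts, and the members took 1.13% to 2.02% of them. Abcb10, the targeted gene, was lower in Abcb10-null cells but its transcript was not absent: it had 112 to 126 CPM (counts per 1000000 library counts) in WT and 67.2 to 79.4 CPM in Abcb10-null libraries at day 0, and 1152 to 1264 CPM against 177 to 237 CPM at day 5. The log2 difference was -0.68 ± 0.06 (standard error, here and below for every log2 difference) at day 0, -1.54 ± 0.19 at day 2 and -2.54 ± 0.12 at day 5. The study describes Abcb10 protein as completely lost in this clone by Western blot, which RNA counts do not measure. Of 10 erythroid genes measured, all 10 were lower in Abcb10-null cells at day 5, with a median log2 difference of -1.44, and their summed level was 4454 to 6140 CPM against 8790 to 15037 CPM in WT. At day 0, 4 of 9 tested were lower (16.2% of all genes), with a median of -3e-04. The globin genes Hba-a1, Hbb-bs and Hbb-bt are among the 10, and their counts are what globin depletion of the RNA left. Progenitor genes were at 52.2 to 89.4 CPM in Abcb10-null and 19.96 to 33.2 CPM in WT libraries at day 5. The part of these lower erythroid and higher progenitor markers in the members' differences was not tested, and in bulk RNA fewer cells at a stage and less RNA per cell cannot be told apart. Of other cell types the cultures could hold, fibroblast markers summed to at most 5.61 CPM, lymphoid markers to at most 3.53 CPM and macrophage markers to at most 12.7 CPM in any library.

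The library sizes behind the CPM values were scaled by edgeR's TMM method, and a gene was called when its adjusted p (edgeR's quasi-likelihood test, Benjamini-Hochberg over all genes tested) was under 0.05. Of the 85 members, 80 had enough counts to be tested. The 5 that did not were Cox4i2, Cox7b2, Cox8b and Cox8c, all tissue-restricted forms of complex IV subunits, and the Atp5o readthrough locus, which had 0 counts in all 30 libraries. Cox4i2 reached 0.186 CPM at most, Cox7b2 0.166 CPM, Cox8b 0.104 CPM and Cox8c 0.0771 CPM. Cox6a2, Cox6b2 and Cox7a1, restricted forms too, passed the filter. Cox6a2 and Cox6b2 are high in some groups and near 0 in others, and a gene of that kind can pass through the group where it is high.

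A few WT libraries stood apart. WT day 2 replicates 1 and 2 and WT day 5 replicate 2 were low in the members as a whole, with median deviations from their own group's mean of -0.35, -0.34 and -0.43 on the log2 scale, whereas the other 27 libraries lay between -0.12 and 0.25. The same 3 libraries were low in other short genes. Over 759 protein-coding genes with under 1500 exon bases that are no members, they deviated by -0.25, -0.25 and -0.34, and the other 27 libraries by -0.10 to 0.19. Long protein-coding genes deviated by -0.05 to 0.04 in all 30 libraries. Of the 80 tested members, 37 had under 1500 exon bases. Exon bases are those of all annotated transcripts of a gene together and not the length of its main transcript. A gene of a small subunit can therefore count as long, such as Atp5l with 6443. Each count over all members below is therefore also given, where it changed by more than 1.5 times, in 2 alternative fits. One left out these 3 libraries, and the other removed the trend of every library with gene length. The shares of all genes beside the counts belong to the main fits and are not given for any alternative. The same holds for counts by complex, by role and of gene lists outside the members. Their dependence on these libraries was not tested. What set these libraries apart was not tested.

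**Figure D1:**
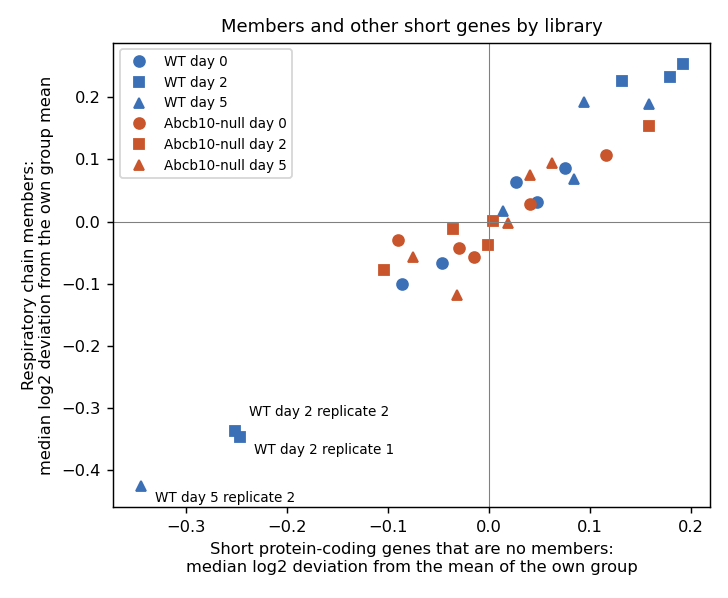
Each point is 1 of the 30 libraries, placed by the median log2 deviation from its own group's mean of 759 short protein-coding genes that are no members (horizontal) and of the 80 tested members (vertical), with colours for genotype and shapes for day. WT day 2 replicates 1 and 2 and WT day 5 replicate 2 lie at the lower left, at -0.35, -0.34 and -0.43 on the vertical axis.

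Before treatment, the members were mostly lower in Abcb10-null cells, by small amounts. At day 0, 42 of the 80 tested were lower and 5 higher, where 16.2% of all 12912 genes tested were lower and 19.7% higher, and the median log2 difference was -0.19 over the members and -0.0019 over all genes. By complex the medians were -0.20 in I, -0.10 in II, -0.16 in III, -0.15 in IV and -0.23 in V. Within complex I, 17 of the 28 accessory subunits were lower and 1 of the 7 subunits of the catalytic core. In complex IV, 7 of the 10 common forms were lower. Short genes in general were lower too: the median was -0.19 over all genes under 1500 exon bases and 0.02 over longer ones, against -0.33 for the 37 short and -0.15 for the 43 long members. With the length trend removed 39 members were lower and 6 higher. In a single fit of all 30 libraries, whose spread estimate includes the more variable later days, 6 were lower and 2 higher.

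In complex I the lowest at day 0 was Ndufa5, an accessory subunit of the matrix arm. It had 75.1, 77.5, 84.4, 90.04 and 91.6 CPM in WT and 45.5, 49.2, 55.5, 58.1 and 58.2 CPM in Abcb10-null libraries, so the groups did not overlap, and the log2 difference was -0.66 ± 0.08 (adjusted p = 6.19e-06). Ndufs6, an accessory subunit needed late in assembly, differed by -0.57 ± 0.07, and Ndufv1, which binds NADH and the flavin, by -0.31 ± 0.06. Higher were Ndufv3 (0.29 ± 0.06), an accessory subunit beside the flavoprotein part, and Ndufs1 (0.17 ± 0.05), the iron-sulfur subunit of the NADH module. The other core subunits had values of -0.14 to -0.01 that did not pass the test.

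Sdha, the flavoprotein of succinate dehydrogenase, was the one complex II gene called at day 0, with -0.37 ± 0.13 (adjusted p = 0.0366), and its groups overlapped: 125 to 192 CPM in WT against 85.1 to 166 CPM. The exact two-sided permutation test of its 5 against 5 values gave p = 0.0794, and the call was lost with the replicate number as a block (adjusted p = 0.0516). In complex III the small subunits Uqcr11 (-0.41 ± 0.08), Uqcrb (-0.37 ± 0.08), Uqcr10 (-0.35 ± 0.07) and Uqcrh (-0.34 ± 0.08) were lower, with Uqcrh uncertain because 2 named pseudogene copies could share its reads, and so was Cyc1, cytochrome c1, by -0.16 ± 0.06. The core proteins Uqcrc1 and Uqcrc2 had 0.00 and 0.04, and the Rieske protein Uqcrfs1 -0.05. Cox7c was lowest in complex IV, at -0.52 ± 0.09, and Atp5mpl, a small membrane subunit, in complex V, at -0.54 ± 0.07. With the length trend removed Uqcr11 and Uqcr10 were no longer called (adjusted p = 0.0785 and 0.340).

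**Figure D2:**
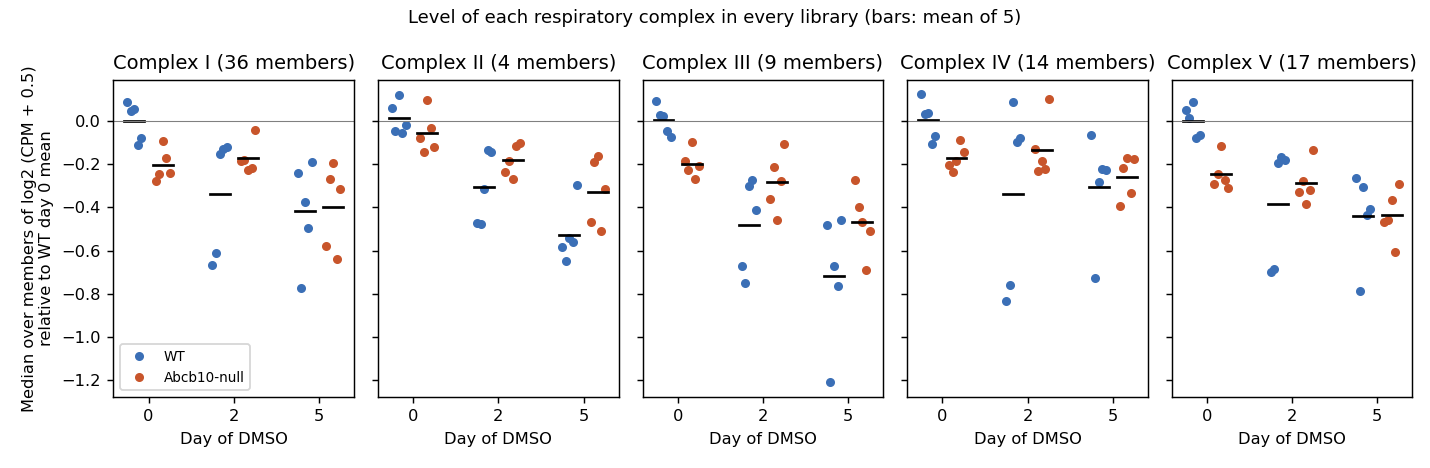
Median over the tested members of each complex of log2 (CPM + 0.5) relative to the gene's mean in WT day 0, for every library (points) with the mean of 5 (bars), by day of DMSO. The WT libraries at days 2 and 5 spread more widely than the others, and the lowest point is WT day 5 replicate 2 in complex III at -1.21.

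During differentiation most members declined in WT cells. At day 5 against day 0, 49 of 80 were lower and 8 higher (all 12723 genes tested: 34.7% lower, 36.5% higher), with a median of -0.43 against 0.02 over all genes. Complex III fell furthest in the median, by 0.72, followed by complex II (0.56), V (0.47), I (0.43) and IV (0.23). At day 2, 37 were lower and 2 higher (30.7% and 31.5% of all genes). The short genes as a class moved in the same direction, with a median at day 5 of -0.47 over all genes under 1500 exon bases and 0.12 over longer ones. Among the members the order was the other way, at -0.31 for the 37 short and -0.55 for the 43 long ones. After the length trend was removed 30 members were lower and 21 higher at day 5 and 23 lower and 15 higher at day 2, the complex III median stayed low at -0.43, and complex IV turned to 0.23. Without the 3 low libraries 49 were lower and 11 higher at day 5, and 28 lower and 10 higher at day 2.

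In Abcb10-null cells the median over the members declined less. At day 5 against day 0, 39 members were lower and 17 higher (33.3% and 33.9% of all 12915 genes tested), with a median of -0.21, and 25 and 25 after removal of the length trend. At day 2, 10 were lower and 15 higher (20.1% and 23.1% of all genes), and 7 and 26 without the length trend. That higher count was 6 to 9 when any 1 Abcb10-null day 0 library was left out. The summed CPM of complexes V and III fell less as well, as a description: complex V went from 8087 ± 429 (SD, n = 5) at day 0 to 5104 ± 841 at day 5 in WT and from 7758 ± 220 to 6423 ± 652 in Abcb10-null libraries, and complex III from 2518 ± 130 to 1785 ± 276 and from 2293 ± 96.8 to 1870 ± 116. Complex IV went from 3439 ± 228 to 3128 ± 470 in WT and from 2948 ± 138 to 2727 ± 170 in Abcb10-null libraries, with overlap between the days in both.

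Cox6b2, a complex IV subunit known from testis, rose more than any other member in WT cells. Its level was 1.31 to 2.61 CPM at day 0, 7.27 to 14.3 CPM at day 2 and 41.4, 41.8, 50.5, 57.0 and 61.1 CPM at day 5, a log2 change of 4.61 ± 0.20 (adjusted p = 7.49e-10). In Abcb10-null cells it was 2.06 to 3.23 CPM at day 0, 3.82 to 11.9 CPM at day 2 and 8.79, 13.4, 15.2, 16.3 and 21.7 CPM at day 5, a change of 2.61 ± 0.22. All WT values at day 5 lay above all Abcb10-null values. Even so it stayed a minor form: per kilobase of exon, Cox6b1, the common form, was at 414 ± 93.4 and Cox6b2 at 45.4 ± 7.98 CPM in WT at day 5.

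Other members that rose in WT cells by day 5 were Atp5s (1.76 ± 0.14), a coupling-factor relative that is not part of the core enzyme, Ndufa1 (0.88 ± 0.12), a small membrane-arm subunit of complex I, and Cox7a2l (0.76 ± 0.10), which is known for joining complexes III and IV. Ndufa1 went from 45.6 to 61.0 CPM at day 0 to 78.4 to 116 CPM at day 5, and rose by 0.78 ± 0.08 in Abcb10-null cells. In complexes II and III, 0 members were higher in WT by edgeR, at an adjusted or an unadjusted p under 0.05 (over all complexes DESeq2 called 7 higher and edgeR 9 at an unadjusted p). The highest values there, Sdhc at 0.09 ± 0.10 and Uqcrh at 0.27 ± 0.13, did not pass.

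The member that fell most in WT cells was Atp5g1, which encodes the subunit of the c ring of complex V, the rotor that protons turn. That subunit is made from 3 genes whose mature proteins are the same and whose import sequences differ. Atp5g1 fell from 283 to 310 CPM at day 0 through 106 to 145 CPM at day 2 to 44.1, 73.2, 74.7, 77.7 and 81.6 CPM at day 5, a log2 change of -2.09 ± 0.14. Atp5g2 fell by 0.56 ± 0.15 and Atp5g3 by 0.70 ± 0.10. Per kilobase of exon the order in WT changed from Atp5g3 (90.7 ± 3.79 CPM), Atp5g1 (61.0 ± 2.21) and Atp5g2 (44.3 ± 2.98) at day 0 to Atp5g3 (55.7 ± 7.93), Atp5g2 (30.1 ± 7.31) and Atp5g1 (14.3 ± 3.04) at day 5. The means of neighbours in each order differed by more than the sum of their SDs. Both orders depend on the exon bases of all annotated transcripts together, 4912 for Atp5g1, 2181 for Atp5g3 and 1675 for Atp5g2. In CPM not divided by length, Atp5g1 was the highest of the 3 in WT at day 0, above Atp5g3 at 192 to 212 CPM. At day 5 Atp5g3 was the highest, at 94.2 to 139 CPM. Atp5g1 stayed above Atp5g2, at 31.6 to 61.1 CPM, in every WT library of day 5, so its last place holds only per kilobase.

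The sequences before the start sites of these genes are shown because close relatives with nearly the same product moved differently, beside Cox6b1 and Cox6b2 and the complex III gene Uqcr11, which was lower at days 0 and 5 in Abcb10-null cells. They come from RefSeq (GRCm38.p6), 180 bases before to 20 bases after the start, read 5′ to 3′ along the gene. Capitals mark matches on either strand to the core letters of motifs known for nuclear genes of mitochondria: GCGCATGCG for NRF1, CCGGAAG for GABPA and other ETS factors, and AAGATGGC for YY1.
Atp5g1, chr11:96075612-96075811, minus strand: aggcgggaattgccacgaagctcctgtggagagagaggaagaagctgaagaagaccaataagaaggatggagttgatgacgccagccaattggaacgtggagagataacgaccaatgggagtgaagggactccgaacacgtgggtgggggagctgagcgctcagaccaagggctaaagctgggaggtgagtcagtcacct
Atp5g2, chr15:102671028-102671227, minus strand: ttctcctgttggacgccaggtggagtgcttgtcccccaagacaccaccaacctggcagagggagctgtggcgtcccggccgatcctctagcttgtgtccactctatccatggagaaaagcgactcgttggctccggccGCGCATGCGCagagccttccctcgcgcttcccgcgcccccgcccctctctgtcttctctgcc
Atp5g3, chr2:73911307-73911506, minus strand: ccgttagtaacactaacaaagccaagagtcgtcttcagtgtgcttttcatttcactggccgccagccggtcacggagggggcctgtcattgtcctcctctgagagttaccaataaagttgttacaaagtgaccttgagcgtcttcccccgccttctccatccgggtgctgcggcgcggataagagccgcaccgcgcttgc
Cox6b1, chr7:30626095-30626294, minus strand: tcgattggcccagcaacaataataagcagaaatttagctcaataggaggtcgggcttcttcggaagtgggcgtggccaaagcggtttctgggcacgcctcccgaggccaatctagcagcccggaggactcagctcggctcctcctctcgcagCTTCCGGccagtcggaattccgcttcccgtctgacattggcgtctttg
Cox6b2, chr7:4753075-4753274, minus strand: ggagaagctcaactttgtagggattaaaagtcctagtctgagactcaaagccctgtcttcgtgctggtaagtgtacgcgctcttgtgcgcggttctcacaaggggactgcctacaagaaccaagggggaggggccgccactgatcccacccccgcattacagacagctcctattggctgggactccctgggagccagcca
Uqcr11, chr10:80406802-80407001, minus strand: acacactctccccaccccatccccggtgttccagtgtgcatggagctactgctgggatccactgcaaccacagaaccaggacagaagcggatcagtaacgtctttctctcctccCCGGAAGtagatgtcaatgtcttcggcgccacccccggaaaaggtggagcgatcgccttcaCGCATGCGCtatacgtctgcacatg

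Atp5g2 held an NRF1 match, which reads on both strands with 1 base between the starts, Cox6b1 an ETS match on the other strand, and Uqcr11 both an NRF1 and an ETS match. Atp5g1, Atp5g3 and Cox6b2 had none in these windows. RefSeq windows of 300 bases were matched for 68 of the 84 symbols. An NRF1 match was in 8 of them (11.8%, against 1.81% of 27025 windows of all genes), an ETS match in 15 (22.1% against 9.12%) and a YY1 match in 9 (13.2% against 2.88%). The YY1 matches were in complexes I (7 windows) and V (2 windows). A match is a stretch of letters and no measured binding.

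In complex I the largest fall was that of Ndufs8, an iron-sulfur subunit of the core, by 1.05 ± 0.14, and in complex III that of Uqcr10, by 1.02 ± 0.14. Cox5a, a subunit on the matrix side of complex IV, fell by 0.975 ± 0.10 in WT. Sdhd, a membrane anchor of complex II, fell by 0.84 ± 0.10 in WT and 0.83 ± 0.08 in Abcb10-null cells, from 337 to 402 CPM to 168 to 238 CPM in WT. In Abcb10-null cells Cox5a fell furthest of all members, by 1.68 ± 0.10, and Atp5g1 changed by -1.29 ± 0.12.

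**Figure D3:**
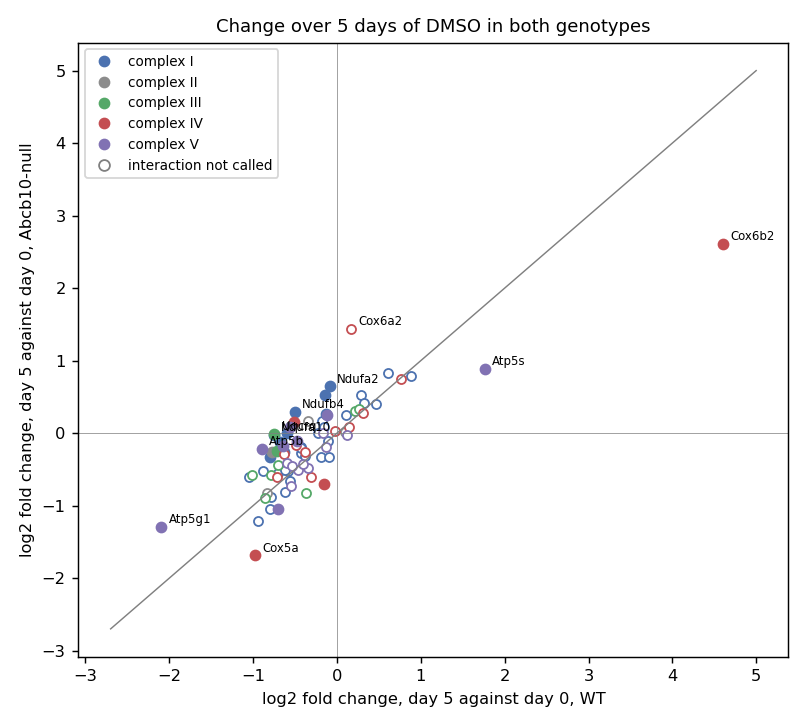
Log2 change from day 0 to day 5 in WT (horizontal) and Abcb10-null cells (vertical) for each tested member, coloured by complex; filled points had a called interaction of genotype and day, and the line marks equal change. Cox6b2 and Atp5s lie below the line at 4.61 against 2.61 and 1.76 against 0.89, Cox5a lies below it at the bottom, and Atp5g1 above it at -2.09 against -1.29.

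Whether the change by day 5 differed between genotypes was tested directly. The interaction was positive (a smaller fall or larger rise in Abcb10-null cells) for 19 members and negative for 5, against 16.8% and 14.7% of all 14020 genes tested. In complex I, 9 of 36 were positive and the other 27 were not called, with Ndufb4, an accessory subunit, largest at 0.80 ± 0.22. Sdhb, the iron-sulfur subunit of complex II, had 0.52 ± 0.18, Uqcrq and Uqcrc2 in complex III 0.75 ± 0.21 and 0.47 ± 0.13, and Cox5b in complex IV 0.68 ± 0.16. The 5 negative ones were Cox6b2 (-1.99 ± 0.30), Atp5s (-0.87 ± 0.17), Cox5a (-0.70 ± 0.15), Cox6b1 (-0.53 ± 0.17) and Atp5g3 (-0.34 ± 0.12). Leaving out WT day 5 replicate 2 raised the negative count to 8, and removal of the length trend to 11. At day 2 the interaction was positive for 13 members and negative for 0 by edgeR (12% and 10.8% of all 13980 genes), 16 and 0 by DESeq2, and 30 and 2 at an unadjusted p under 0.05 by edgeR, but the positive count was 2 without the 3 low WT libraries and ranged from 3 without WT day 2 replicate 2 to 20 without Abcb10-null day 2 replicate 2. These interactions share the day 0 and day 5 libraries with the comparisons above and below and are no separate evidence.

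Few members were called between the genotypes at day 2, when the WT libraries were widely spread. Of 80 members, 5 were higher and 0 lower in Abcb10-null cells by edgeR, where 14.9% and 16.9% of all 13053 genes were. DESeq2 called 6 higher and 0 lower, and an unadjusted p under 0.05 by edgeR was reached by 8 higher and 2 lower. The 5 were Cox6a2, Ndufs1 (0.41 ± 0.13), Ndufa10 (0.38 ± 0.13), Atp5a1 (0.37 ± 0.13) and Ndufs3 (0.32 ± 0.11). Without WT day 2 replicates 1 and 2 the edgeR count was 0 (adjusted p = 0.0543 for Cox6a2 and 0.148 for Ndufs1), and with the replicate number as a block it was 2, whereas one fit of all 30 libraries gave 11 higher and 2 lower. Leaving out single libraries moved the count between 0, without Abcb10-null day 2 replicate 1 or 4, and 7.

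At day 5, 10 of 80 members were higher and 17 lower in Abcb10-null cells, a smaller share higher and a similar share lower than among all 12676 genes tested (19.8% and 17.8%), and the median of -0.02 was close to that of all genes (-0.0164). The counts of this main fit are near or under this background, so what follows describes single subunits and not the members as a group. Complex IV had 6 lower and 2 higher with a median of -0.27, complex V 5 lower and 3 higher (-0.22), complex I 5 lower and 3 higher (0.0017), complex III 1 lower and 2 higher (0.08), and complex II had 0 called by edgeR, with 1 member at an unadjusted p under 0.05 and values of -0.13 to 0.36. Without WT day 5 replicate 2, 28 were lower and 9 higher, and with the length trend removed 26 were lower and 9 higher. The complex IV median was then -0.39 and -0.34. The share of all genes called is not given for these fits, so their counts cannot be read against a background. Without Abcb10-null day 5 replicate 5 the higher count was 6.

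**Figure D4:**
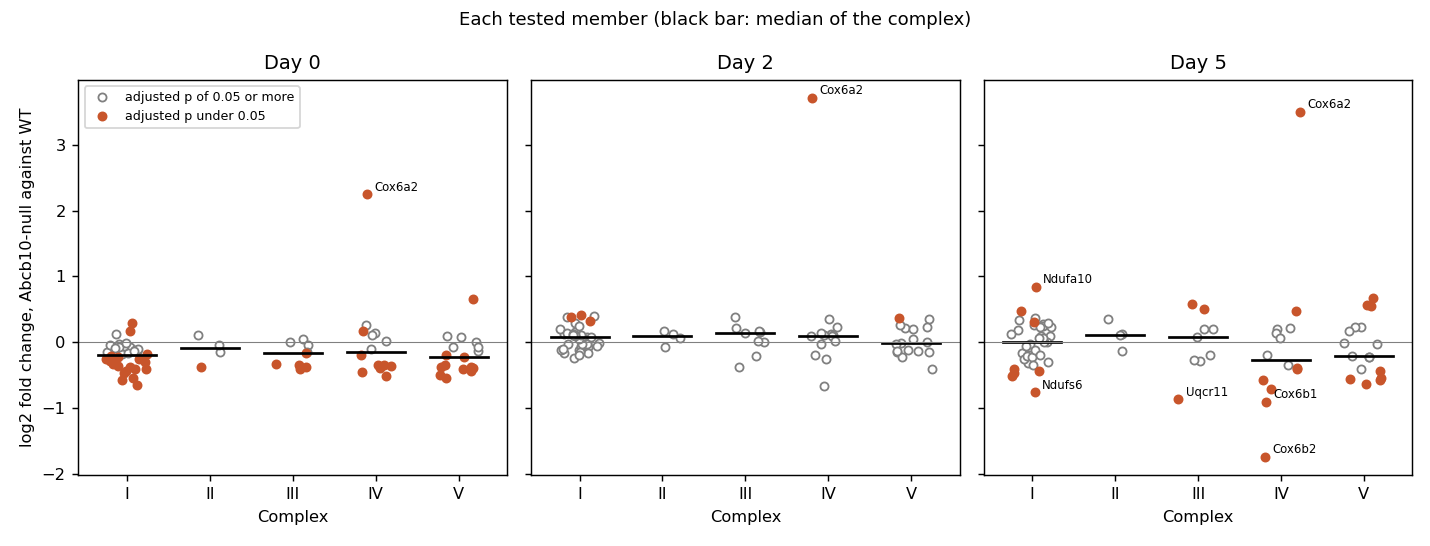
Log2 difference between Abcb10-null and WT for every tested member by complex at days 0, 2 and 5, filled where the adjusted p was under 0.05, with the median of each complex as a bar. Most points of day 0 lie just below 0 and most of day 2 around 0, and those of day 5 spread from Cox6b2 at -1.75 to Cox6a2 at 3.501. The highest point of all is Cox6a2 at day 2, at 3.72.

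Complex IV held the largest differences at day 5. Cox6a2, the form of subunit 6a known from heart and skeletal muscle (chr7:128205435-128206387, minus strand), was higher in Abcb10-null cells on all 3 days. At day 0 it had 1.31, 1.59, 1.97, 2.05 and 2.27 CPM in WT and 7.97, 8.40, 8.96, 9.05 and 9.86 CPM in Abcb10-null libraries (2.25 ± 0.16, adjusted p = 4.74e-09). At day 2 the values were 0.0591 to 0.443 CPM against 0.545, 1.19, 2.20, 6.63 and 8.89 CPM (3.72 ± 0.75). At day 5, 4 WT libraries had 0, 0, 0.0928 and 0.217 CPM and replicate 5 had 9.79 CPM, against 17.4, 19.7, 23.4, 23.8 and 35.6 CPM in Abcb10-null libraries (3.501 ± 0.94, adjusted p = 0.0112). The groups did not overlap on any day. That alone fixes the exact permutation test at p = 0.00794, the smallest that 5 against 5 allow, so this p adds nothing to the ranges. At days 2 and 5 Cox6a2 passed the expression filter through the Abcb10-null libraries, where it is high, and its non-overlap there is no separate support.

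WT day 5 replicate 5 decides the size of that difference. Without it the fitted value was 8.09 (adjusted p = 2.33e-07), which rests on WT libraries with 0, 0, 1 and 3 counts and depends on the fit's prior count, whereas replicate 5 had 152 counts. The interaction at day 5 changed from 1.25 (adjusted p = 0.353) to 5.88 (adjusted p = 6.55e-09) without it. Ribosomal protein genes were 0.42 above the group's mean in that library, the highest of the 30 libraries, and their part in the result was not tested. Of the Cox6a2 exons, 10.3% overlap exons of Itgad on the other strand, and the strand setting of the counting was not stated. On the per-kilobase scale Cox6a2 stayed far below Cox6a1, the common form, at 35.2 ± 10.3 against 327 ± 36.3 CPM in Abcb10-null cells at day 5.

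Cox6b2 differed in the other direction at day 5, by -1.75 ± 0.21 (adjusted p = 5.64e-05), with -1.78 under the replicate block, -1.81 with the length trend removed and -1.82 without WT day 5 replicate 2. Its common partner Cox6b1, which faces the intermembrane space, was also lower: 143, 148, 150, 170 and 175 CPM against 220, 231, 304, 337 and 372 CPM in WT, without overlap (-0.91 ± 0.15). Cox5a had 44.2, 54.4, 62.4, 64.0 and 64.9 CPM against 67.8, 83.5, 88.3, 91.3 and 102 CPM (-0.58 ± 0.13), and Cox7a2, the common form of subunit 7a, differed by -0.71 ± 0.13. Cox6a1 and Cox6c were lower, at -0.42 ± 0.13 and -0.39 ± 0.12. Cox5b, which holds zinc, was higher, at 0.47 ± 0.14. Cox4i1, Cox7a1, Cox7b, Cox7c and Cox8a had values of -0.35 to 0.21 that did not pass, and Cox7a2l had 0.14 ± 0.12.

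**Figure D5:**
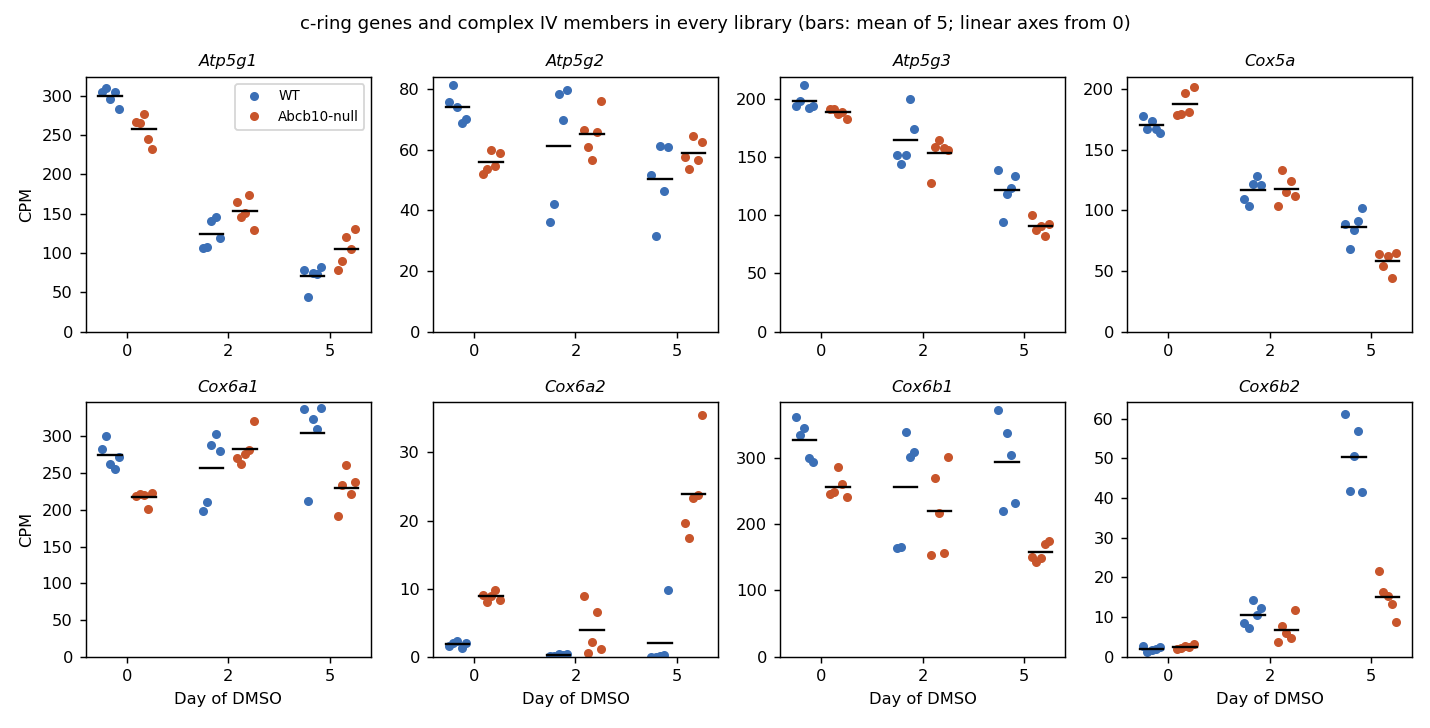
CPM of the c-ring genes and of complex IV members in every library, WT and Abcb10-null side by side at days 0, 2 and 5, on linear axes from 0 with the mean of 5 as a bar. Cox6b2 rises to 41.4 to 61.1 CPM in WT and 8.79 to 21.7 CPM in Abcb10-null cells, and Cox6a2 shows 1 WT library of day 5 at 9.79 CPM.

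Complex V had calls in both directions. At day 5, 2 of the 5 subunits of the catalytic head were higher: Atp5b, the beta subunit, had 992, 1354, 1463, 1535 and 1867 CPM in WT and 1964, 1989, 2451, 2556 and 2605 CPM in Abcb10-null libraries, with no overlap (0.68 ± 0.15, adjusted p = 0.00445). Atp5a1, the alpha subunit, differed by 0.54 ± 0.13. Of the other head subunits Atp5c1 (1 named pseudogene), Atp5d and Atp5e had -0.01, -0.03 and -0.42 and did not pass. Of the membrane part, 3 of the 4 small membrane subunits were lower, namely Atp5mpl (-0.58 ± 0.12), Atp5j2 (-0.56 ± 0.13) and Atp5l (-0.55 ± 0.15), and Atp5j of the peripheral stalk by -0.64 ± 0.11. Atp5l is uncertain, since 2 named pseudogene copies could share its reads. Atp5b and Atp5a1 took most of the complex's CPM in every library of day 5, and the mean summed CPM of complex V was higher in Abcb10-null cells while its median member was lower.

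The c-ring genes also went separate ways at day 5. Atp5g1 was higher, at 77.7, 89.3, 104, 121 and 130 CPM against 44.1 to 81.6 CPM in WT (0.57 ± 0.18, adjusted p = 0.0221), with the lowest Abcb10-null library inside the WT range. Atp5g3 was lower, at 82.0, 86.8, 90.5, 92.3 and 99.96 CPM against 94.2 to 139 CPM (-0.43 ± 0.11), with the same kind of overlap at 1 library. Atp5g2 had 53.8 to 64.5 CPM against 31.6 to 61.1 CPM (0.22 ± 0.16), which did not pass. Their interactions were 0.81 ± 0.19, -0.34 ± 0.12 and 0.65 ± 0.17.

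In complex I smaller shares were called at day 5 than among all genes. Ndufa10, an accessory subunit of the matrix side, had 166, 209, 217, 223 and 304 CPM in WT and 341, 396, 410, 421 and 446 CPM in Abcb10-null libraries (0.84 ± 0.14, adjusted p = 0.000553). It fell in WT by 0.76 ± 0.13 from day 0 and had -0.03 ± 0.08 in Abcb10-null cells. Ndufs6 had 29.4, 30.3, 32.1, 33.2 and 33.7 CPM against 36.9, 53.6, 55.5, 56.1 and 66.7 CPM (-0.77 ± 0.14), again without overlap. Ndufv2, of the NADH module, was higher by 0.30 ± 0.11, the one core subunit of complex I called, and the other 6 core subunits had -0.06 to 0.28. Ndufa4, which is now known as a complex IV subunit in spite of its name, was lower, at -0.47 ± 0.13; with it counted in complex IV and Cox7a2l and Atp5s left out, the complex IV median at day 0 was -0.26.

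In complex III, Uqcrq, which sits beside cytochrome b, and Uqcrc2, a core protein, were higher at day 5. Uqcrq had 130, 131, 146, 148 and 208 CPM in Abcb10-null and 60.9, 99.2, 99.7, 122 and 124 CPM in WT libraries (0.59 ± 0.18), and Uqcrc2 differed by 0.50 ± 0.11. Uqcr11, the smallest subunit, had 64.7, 68.4, 80.9, 91.3 and 93.1 CPM against 94.9, 155, 155, 156 and 165 CPM (-0.87 ± 0.16, adjusted p = 0.000925). The lowest WT library of Uqcr11, replicate 2, lay just above the Abcb10-null range. Cyc1, Uqcrfs1 and Uqcrc1 had -0.20, 0.20 and 0.20 and did not pass. Complex II showed no call: Sdha 0.12 ± 0.11, Sdhb 0.36 ± 0.16, Sdhc -0.13 ± 0.12 and Sdhd 0.10 ± 0.11.

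Genes that serve the chain without being subunits are read here against the share of all genes, which was 19.8% higher and 17.8% lower in Abcb10-null cells at day 5 and 34.7% lower in WT from day 0 to day 5. Their lists had positive medians at day 5, where the median was -0.02 over all members and ran from -0.27 in complex IV to 0.11 in complex II. Of 10 porins and import channels, 7 were higher in Abcb10-null cells at day 5 and the other 3 were not called (median 0.55), with Tomm20, an import receptor, at 0.91 ± 0.15, and all 10 fell in WT from day 0 to day 5 (median -1.44). Assembly factors had 13 higher and 5 lower of 45 tested (median 0.12), from Ndufaf5 at 1.37 ± 0.23 and the copper carrier Sco2 at 1.33 ± 0.25 to Ndufaf8 at -1.11 ± 0.19. Of 78 mitochondrial ribosomal protein genes 23 were higher and 5 lower (median 0.16), and 73 fell in WT by day 5. Regulators of mitochondrial transcription had 6 higher of 12 tested, among them Esrra (0.84 ± 0.22) and Myc (0.84 ± 0.13), which is also among the progenitor markers. In coenzyme Q synthesis 3 of 11 were higher, led by Coq8a at 1.65 ± 0.35. Of the carriers and regulators, Atpif1, the inhibitor of complex V, was the one called of 5 tested, at 0.45 ± 0.11.

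Transcripts made inside the mitochondrion, the partners of these subunits, were tested for 7 of 13 genes. The others, mt-Atp6, mt-Atp8, mt-Co2, mt-Co3, mt-Nd3 and mt-Nd4l, had at most 5 counts in any library. What kept their counts that low was not tested. At day 5, 3 were lower in Abcb10-null cells, mt-Nd2 (-1.48 ± 0.29), mt-Nd4 (-1.48 ± 0.38) and mt-Cytb (-1.22 ± 0.25), and at day 0, 6 were (17.8% and 16.2% of all genes). At day 2 the 7 values lay between -0.53 and 0.07 and did not pass the test. Most of the CPM of these genes came from mt-Co1, whose genotypes overlapped. It had 5019 to 7806 CPM in WT and 5149 to 6984 CPM in Abcb10-null libraries at day 0. At day 5 it had 7683 to 10348 against 7801 to 10071 CPM. The summed level of the 13 genes overlapped at day 5 too, at 8846 to 11403 CPM in WT and 8216 to 11072 CPM in Abcb10-null libraries. The libraries were made after depletion of ribosomal RNA, and how far that step touched these transcripts was not tested.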

How the data were processed

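RNA was depleted of ribosomal and globin RNA, sequenced as paired 51-base reads, aligned by the authors with STAR 2.6.1b and counted per gene with featureCounts 1.6.3 on GRCm38. The deposited values were raw counts per gene in 1 table. The strand setting of the counting is not given in the sources used here. Of the 54532 genes, 9219 had 0 counts throughout and 37 had no entry in the annotation. Totals were 9906783 to 20157768 per library, and replicates differed by more than counting noise.

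From these counts, edgeR 4.0.16 (R 4.3.3) computed TMM scaling, default expression filtering and the quasi-likelihood F test with Benjamini-Hochberg adjustment, on the 10 libraries of each comparison or the 20 of each interaction. Levels used TMM over all 30 libraries, with 0.5 CPM added before log2. Exact two-sided permutation tests of 5 against 5 allow no p below 0.00794. Scripts were tested on simulated data. Alternatives were DESeq2 1.42.0, its size factors in edgeR, other filters, 1 fit of all libraries, a replicate block, left-out libraries, other role assignments, and, added after the data were seen, a fit without 3 WT libraries and 1 with the length trend of each library removed. Deviations of same-numbered replicates had a median r of -0.03 over 75 pairs, with a range of -0.34 to 0.50 and 10 pairs over 0.1. The labels do not say whether same-numbered replicates belong together. The members and gene lists were chosen with earlier results of these data known. Named genes were, per complex, those with the largest called change in each direction, the core subunits, isoform families and list genes with the largest called change. RefSeq (GRCm38.p6) windows came from 250 bases before to 50 after each start.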

Additional observations from a re-analysis of the deposited data

Results flagged for a closer look

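Single libraries stood apart from the other 4 of their group in 13 of 210 groups of 5 examined (the level of each complex and 30 members), where chance gives about 5%. In WT day 5 replicate 2, Uqcr11 was at 94.9 CPM, Cox6a1 at 212 CPM, Cox7c at 48.4 CPM and Atp5g1 at 44.1 CPM, all below the others, and this library was low in short genes. In WT day 5 replicate 5, Cox6a2 was at 9.79 CPM with the others at 0 to 0.217 CPM. In Abcb10-null day 2 replicate 5, the complex I level was -0.0425 on the log2 scale (others -0.23 to -0.18), Ndufa1 was at 67.5 CPM and Cox7a2 at 269 CPM, above the others. Uqcrq was high in Abcb10-null day 0 replicate 3 at 190.3 CPM and in Abcb10-null day 5 replicate 5 at 208 CPM. Cox6a1 was low in Abcb10-null day 0 replicate 4 at 201 CPM, Sdha high in Abcb10-null day 2 replicate 3 at 201 CPM, and Atp5g3 low in Abcb10-null day 2 replicate 1 at 128 CPM.

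The change from day 0 differed between genotypes by a called interaction for 22 values of these members. By day 2 the log2 difference of the changes was 0.55 for Ndufs6, 0.95 for Ndufb4, 0.60 for Sdha, 0.48 for Cox6a1, 0.58 for Cox7c, 0.39 for Atp5b and 0.53 for Atp5g1. By day 5 it was 0.48 for Ndufa5, 0.74 for Ndufa10, 0.80 for Ndufb4, 0.52 for Sdhb, 0.75 for Uqcrq, 0.47 for Uqcrc2, 0.48 for Atp5a1, 0.69 for Atp5b, 0.81 for Atp5g1 and 0.65 for Atp5g2. It was negative, with the change in Abcb10-null cells below that in WT, for Cox5a (-0.70), Cox6b1 (-0.53), Cox6b2 (-1.99), Atp5g3 (-0.34) and Atp5s (-0.87).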

How the results depend on the processing

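Over 183 results and 3949 alternative values, 3706 kept their direction and their side of the threshold or stayed within the spread, and 1 reversed: Ndufa1 at day 0, from -0.29 to 0.0804 with the length trend removed. The cause of the changes below was not tested, and the share of all genes called is not given for these alternatives.

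Without WT day 2 replicates 1 and 2 and WT day 5 replicate 2 (chosen after seeing the data), counts were 0 higher at day 2, 28 lower at day 5, 10 higher in WT at day 2, 2 positive and 2 negative interactions at day 2 and 8 negative at day 5, and the complex II median was -0.0764 at day 2 and -0.0368 in its interaction. With the length trend removed (also chosen after seeing the data), counts were 3 higher and 1 lower at day 2, 26 lower at day 5, 15 higher and 23 lower in WT at day 2, 21 higher and 30 lower in WT at day 5, 26 higher in Abcb10-null at day 2, 25 lower in Abcb10-null at day 5, and 2 and 11 negative interactions at days 2 and 5. Medians in WT at day 5 were then -0.0372 (complex I), -0.34 (II), 0.23 (IV) and -0.24 (V), and -0.24 for III at day 2. In Abcb10-null cells they were 0.22 for I at day 2, and 0.0504 (II), -0.16 (III) and 0.14 (IV) at day 5. One fit of all 30 libraries gave 2 higher and 6 lower at day 0, 11 higher and 2 lower at day 2, 5 and 11 higher in Abcb10-null at days 2 and 5, 6 positive interactions at day 2 and 3 negative at day 5. Without a filter, counts were 2 higher at day 2, 5 higher at day 5, and 7 and 11 higher in Abcb10-null at days 2 and 5. At least 10 counts in every library gave 3 higher at day 2, and DESeq2 a complex IV median of 0.0395 in Abcb10-null at day 5. With Ndufa4 in complex IV and 2 members left out, the complex IV median was -0.26 at day 0 and -0.22 in Abcb10-null at day 5.

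The replicate block gave 2 higher at day 2 and 4 higher in Abcb10-null at day 2. Whether same-numbered samples share more than a number is not stated. Of 75 such pairs, 10 correlated over 0.1, the highest at 0.50.

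When single libraries were left out, counts ranged from 3 to 5 higher at day 0, 0 to 7 higher and 0 to 1 lower at day 2, 6 to 13 higher and 14 to 28 lower at day 5, 6 to 18 higher in Abcb10-null at day 2, 3 to 20 positive and 0 to 1 negative interactions at day 2, and 4 to 8 negative at day 5. The complex III median at day 0 ranged from -0.23, without Abcb10-null day 0 replicate 3, to -0.12.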
